A study of Mus musculus with 6 samples.

Results

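Notch signaling genes were followed in lungs of mice with intact or impaired glucocorticoid receptor (GR) after hemorrhagic shock (HS). The 10 genes were 4 ligands (*Dll1*, *Dll4*, *Jag1* and *Jag2*), the 4 receptors (*Notch1* to *Notch4*) and 2 target genes (*Hes1* and *Hey1*), picked by gene symbol out of 54532 genes in the deposited counts. They were picked with results of the comparison between these genotypes already known, so their differences are a description, with no test of their own. Calls from the tests over all genes are given beside the shares of all genes.

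Lung RNA came from 3 GRdim/dim mice, in which a point mutation of the GR gene, present in every cell type, impairs dimerization of the receptor, and from 3 GR+/+ littermates. Counts per gene cannot show a point mutation, so the genotypes rest on the labels. All mice were of mixed 129/SvEv x C57BL/6 background and 10 to 16 weeks old. Under anesthesia and ventilation, blood was withdrawn until the mean arterial pressure reached 35 mmHg, kept there for 1 h, and given back. Resuscitation then lasted 4 h with fluids and norepinephrine, and no lungs of unshocked mice were analysed here, so every value belongs to the shocked state. The GR+/+ group held 2 females and 1 male and the GRdim/dim group 1 female and 2 males. Each mouse gave 1 library of poly(A)-captured RNA from whole lung tissue.

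Notch receptors are membrane proteins that are activated by ligands on a neighbouring cell. Ligand binding opens the receptor to proteases of the ADAM family and then to γ-secretase, and the released intracellular part enters the nucleus and joins RBPJ at target genes such as *Hes1* and *Hey1*. In the lung, the pathway is known for arterial and capillary endothelium (*Dll4*, *Notch1*, *Notch4*, *Hey1*), for smooth muscle and pericytes (*Notch3*) and for the choice between secretory and ciliated cells in the airways. In lymphocyte development, DLL1 acting on NOTCH2 is known for marginal zone B cells.

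Across the genes, the libraries of the genotypes separated for the ligands *Dll1*, with about 2.40-fold more transcript in GRdim/dim lungs, and *Jag2*, with 1.79-fold more in GR+/+ lungs. *Dll4* and *Jag1* overlapped, as did every receptor and both targets, so that the groups did not overlap for 2 of the 10 genes, against 14.8% of all genes tested. *Notch1* and *Notch4* had lower means in GRdim/dim lungs but varied widely within GR+/+. None of the 10 genes was a differentially expressed gene (DEG) by edgeR's quasi-likelihood test, which called 0.169% of all genes. DESeq2 called 2 of the 10, *Dll1* and *Jag2*, and 1.70% of all genes with an adjusted *p*-value.

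*Dll1* lies on chromosome 17 and is read from the minus strand, and the RefSeq table of GRCm38.p6 gives it 2 start sites. The 250 bases before a start are shown for this gene because it had the largest difference between genotypes of the 10. Capitals mark CACGCG, a sequence bound by HES repressors, which was added to the search after the *Dll1* sequence had been seen. The window before the outer start (position 15376932) is shown whole. It lies wholly within exons of *A930024N18Rik*, a long non-coding RNA on the opposite strand. Of the window before the inner start (position 15375823), only the outer 97 bases are shown, because the other 153 lie in an annotated 5′ UTR of *Dll1*. All 250 bases of this window, with the 97 shown, lie within annotated exons.

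*Dll1*, before the outer start, chr17:15376933-15377182, minus strand: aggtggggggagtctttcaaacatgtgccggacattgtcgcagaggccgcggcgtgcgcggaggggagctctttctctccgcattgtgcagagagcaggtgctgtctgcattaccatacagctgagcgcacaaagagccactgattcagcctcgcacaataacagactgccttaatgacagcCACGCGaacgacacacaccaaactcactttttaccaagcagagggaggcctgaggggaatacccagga
*Dll1*, before the inner start, chr17:15375977-15376073, minus strand: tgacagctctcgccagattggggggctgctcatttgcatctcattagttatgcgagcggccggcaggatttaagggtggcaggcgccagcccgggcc

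The same window was searched on both strands in 8 of the 10 genes, with 9 start sites in all, and in 32851 windows of all RefSeq genes. *Hes1* and *Hey1* were not analysed here for this. CACGCG was found in 4 of the 9 windows (*Dll1* outer start, *Dll4*, *Jag1* and *Notch2*) and in 7.62% of all windows. Since this motif was added after the *Dll1* sequence had been seen, nothing is read from that count. The GC content of the 9 windows ran from 56.0% to 87.2%. No motif was compared with windows of like GC content. The core letters bound by RBPJ, TGGGAA, were in 0 of the 9 windows and in 21.6% of all windows. The full palindrome of a GR dimer site, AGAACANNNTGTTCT, was in 0 of 9 and in 0.00913% of all windows. With so rare a sequence, nothing can be read from its absence in 9 windows. The single arm AGAACA, which is contained in the palindrome, was in 1 of 9 (the inner *Dll1* window, in the part not shown) and in 16.1% of all windows. The *Jag2* window, with a GC content of 87.2%, held none of these motifs, but all of its 250 bases lie in an annotated 5′ UTR of *Jag2* and it is not shown. A match is a run of letters and not a measured binding site.

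The libraries held between 15687734 and 32082940 counts, with the deepest, GR+/+ replicate 3, in the control group. The 10 genes had 330 to 5256 counts per library, and at the lowest of these the counting error alone is 5.5% (one standard deviation). All 10 were among the 16568 genes with enough counts to be tested. The unit of all levels is counts per 1000000 counts of a library (CPM) after TMM scaling, with the standard deviation (SD) over 3 mice.

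*Dll1* encodes Delta-like 1, a ligand of the Delta type (GRCm38, chr17:15367354-15376872). Its level was 19.7, 37.2 and 23.5 CPM in GR+/+ replicates 1, 2 and 3, and 74.4, 61.9 and 56.6 CPM in GRdim/dim replicates 1, 2 and 3. All 3 GRdim/dim lungs were above all 3 GR+/+ lungs, and the gap between the groups was wider than the range within either. The means were 26.8 ± 9.19 CPM in GR+/+ and 64.3 ± 9.15 CPM in GRdim/dim (SD, n = 3 each), a log2 fold change of 1.26 with a standard error (SE) of 0.25. With 1 library left out, the log2 fold change ran from 1.09 (without GR+/+ replicate 1) to 1.58 (without GR+/+ replicate 2). Exons of *A930024N18Rik* overlap 867 exon bases of *Dll1*, or 20.5%, and the use of strand in counting is not given in the sources used here. That gene had 13 to 31 counts per library, against at least 330 for *Dll1*. How reads in the shared bases were counted is not known, so these counts do not show the effect of the overlap.

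*Jag2* encodes Jagged 2, a ligand of the Serrate type that in the lung is known from airway epithelium (chr12:112907819-112929776, minus strand). Its level was 54.6, 57.3 and 49.9 CPM in GR+/+ and 23.3, 26.5 and 40.6 CPM in GRdim/dim replicates 1, 2 and 3. The groups did not overlap, and the GR+/+ values lay closer together than the GRdim/dim values, of which replicate 3 came nearest to the controls. The means were 53.9 ± 3.74 and 30.1 ± 9.16 CPM (SD, n = 3 each), a log2 fold change of -0.84 (SE 0.22). The value was -1.11 without GRdim/dim replicate 3 and -0.68 without GRdim/dim replicate 1.

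*Dll4* encodes Delta-like 4, the Delta ligand of arterial and capillary endothelium (chr2:119325784-119335962, plus strand). It was measured at 208, 221 and 122 CPM in GR+/+ and at 225, 161 and 183 CPM in GRdim/dim lungs. The groups overlapped over most of their range and GR+/+ replicate 3 was the lowest of all 6. The difference was 0.05 on the log2 scale (SE 0.24), and it changed sign to -0.18 when GR+/+ replicate 3 was left out. *Gm14207*, on the opposite strand, overlaps 5.56% of the exon bases of *Dll4* and had 68 to 121 counts per library.

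*Jag1* encodes Jagged 1, a ligand known from vascular smooth muscle and airway basal cells (chr2:137081456-137116644, minus strand). It was measured at 84.4, 68.4 and 78.5 CPM in GR+/+ and at 76.1, 79.9 and 49.9 CPM in GRdim/dim lungs. Only GRdim/dim replicate 3 stood below the range of the controls. On the log2 scale the difference was -0.17 (SE 0.20) and came to 0.02 without that library.

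**Figure D1:**
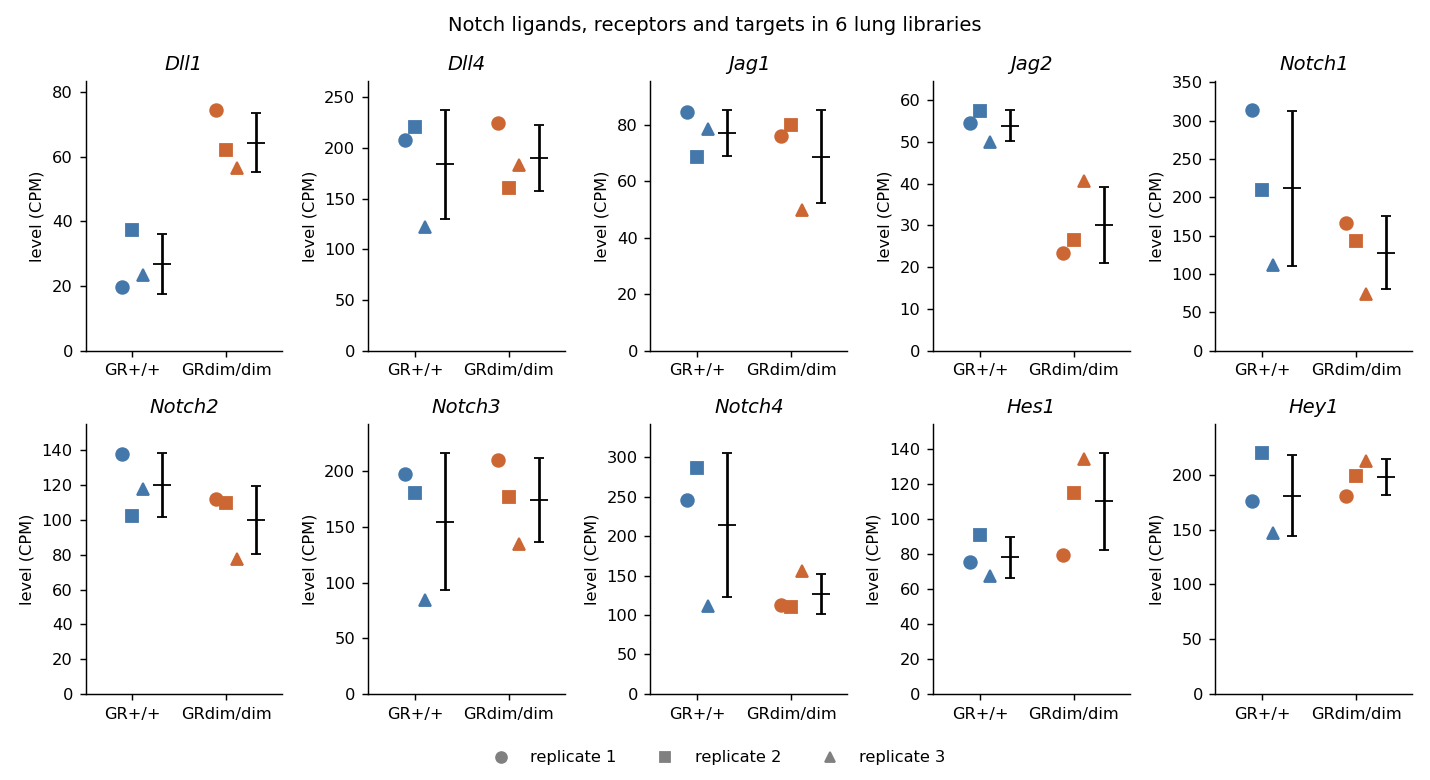
Level in CPM (linear axes from 0) of the 4 ligands, 4 receptors and 2 targets in each GR+/+ (blue) and GRdim/dim (orange) library, with marker shapes for the replicate and black bars for the mean ± SD of 3 mice. The groups do not overlap for *Dll1* (19.7 to 37.2 against 56.6 to 74.4 CPM) and *Jag2* (49.9 to 57.3 against 23.3 to 40.6 CPM), and overlap for the other 8 genes.

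Because levels of different genes can be compared only per length, the shares of the ligand transcripts were computed from CPM per kilobase of gene length. *Dll4* made up most of the ligand transcript in every library, between 54.8% and 66.7% in GR+/+ and between 56.5% and 63.2% in GRdim/dim lungs. *Dll1* contributed 5.77%, 10.2% and 9.60% in GR+/+ and 19.1%, 19.8% and 17.8% in GRdim/dim lungs, and *Jag2* 9.67%, 9.53% and 12.4% against 3.63%, 5.14% and 7.72%. So *Dll1* ranked under *Jag2* in GR+/+ replicates 1 and 3 and just above it in replicate 2, whereas its share was more than that of *Jag2* in each GRdim/dim lung. *Jag1* ranged from 13.6% to 23.2% and from 11.4% to 18.5%. These shares carry the same counts as the levels above and are not a separate measurement.

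**Figure D2:**
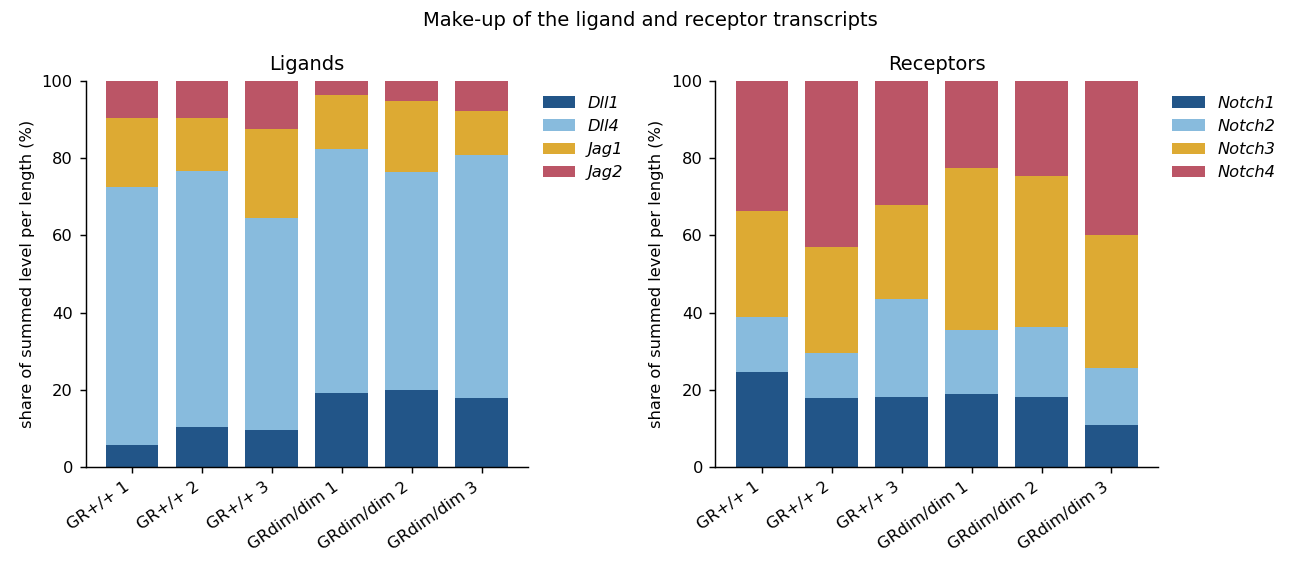
Share (%) of each gene in the summed level per length of the 4 ligands (left) and the 4 receptors (right), 1 bar per library. The *Dll1* segment is 5.77% to 10.2% in GR+/+ and 17.8% to 19.8% in GRdim/dim libraries, and the *Notch3* segment 24.3% to 27.5% and 34.5% to 41.9%. Each share depends on all 4 genes of its sum, and the CPM levels of *Notch3* overlapped.

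Of the receptors, *Notch1* (chr2:26457903-26516663, minus strand), the receptor used in endothelium and in T cell development, differed most between mice of 1 genotype. Its level was 314, 209 and 112 CPM in GR+/+ and 167, 143 and 74.5 CPM in GRdim/dim lungs. GR+/+ replicate 3 lay below 2 of the 3 GRdim/dim lungs, so the groups overlapped. The means were 212 ± 101 and 128 ± 48.1 CPM (SD, n = 3 each), a log2 fold change of -0.72 (SE 0.38), with values between -1.03 without GR+/+ replicate 3 and -0.32 without GR+/+ replicate 1. The SD between mice of 1 genotype was 0.69 on the log2 scale, more than in 99.2% of the genes of like mean level.

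*Notch4* (chr17:34564268-34588503, plus strand) encodes a receptor found mainly in endothelial cells. It was measured at 246, 286 and 112 CPM in GR+/+ and at 113, 110 and 156 CPM in GRdim/dim lungs. GR+/+ replicates 1 and 2 were above all 3 GRdim/dim lungs, and GR+/+ replicate 3 was within their range. The means were 214 ± 91.2 and 127 ± 25.5 CPM (SD, n = 3 each), a log2 fold change of -0.76 (SE 0.31). Leaving out GR+/+ replicate 3 gave -1.07 and leaving out GR+/+ replicate 2 gave -0.49.

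*Notch3* (chr17:32120820-32166880, minus strand) encodes the receptor of vascular smooth muscle and pericytes. It was measured at 198, 181 and 84.4 CPM in GR+/+ and at 210, 177 and 135 CPM in GRdim/dim lungs. Again GR+/+ replicate 3 was the lowest of all 6 and the groups overlapped. The log2 fold change was 0.17 (SE 0.30), and it turned to -0.13 without GR+/+ replicate 3. The SD within genotypes was 0.53 on the log2 scale, above 96.2% of the genes of like level.

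*Notch2* (chr3:98013527-98150361, plus strand), a receptor of many cell types, was the steadiest of the 4 receptors between mice. Its level was 138, 102 and 118 CPM in GR+/+ and 112, 110 and 77.8 CPM in GRdim/dim lungs. Replicates 1 and 2 of GRdim/dim lay within the control range and replicate 3 below it. This gave a log2 fold change of -0.26 (SE 0.19), which ranged from -0.35 to -0.10 with 1 library left out.

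In the receptor shares per length, *Notch3* took 27.4%, 27.5% and 24.3% of the receptor transcript in GR+/+ and 41.9%, 39.2% and 34.5% in GRdim/dim lungs. The shares of this gene did not overlap although its CPM levels did. A share also depends on the other receptors in the sum. The log2 fold changes of the levels were 0.17 (SE 0.30) for *Notch3*, -0.76 for *Notch4*, -0.72 for *Notch1* and -0.26 for *Notch2*. So the higher share does not by itself show a higher level of *Notch3*. Separation of shares was not counted over other genes. *Notch4* held 33.8%, 43.2% and 32.1% in GR+/+ and 22.5%, 24.5% and 39.9% in GRdim/dim lungs, which overlapped because of GRdim/dim replicate 3. *Notch1* (17.9% to 24.5% against 10.8% to 18.8%) and *Notch2* (11.5% to 25.4% against 14.9% to 18.3%) overlapped as well.

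The targets stand for the output of the pathway, although other signals also act on both. *Hes1* (chr16:30064384-30067796, plus strand), a transcriptional repressor, was measured at 75.6, 91.0 and 67.5 CPM in GR+/+ and at 79.5, 115 and 134 CPM in GRdim/dim lungs. GRdim/dim replicates 2 and 3 were above all controls and replicate 1 was within their range. The means were 78.0 ± 11.9 and 110 ± 27.6 CPM (SD, n = 3 each), a log2 fold change of 0.49 (SE 0.21) that stayed between 0.32 and 0.68 with 1 library left out.

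*Hey1* (chr3:8663359-8667256, minus strand), a related repressor of arterial endothelium, was measured at 176, 220 and 147 CPM in GR+/+ and at 181, 199 and 213 CPM in GRdim/dim lungs. The GRdim/dim lungs all lay inside the control range. The log2 fold change was 0.13 (SE 0.19), and it was 0 on 2 decimals without GR+/+ replicate 3.

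**Figure D3:**
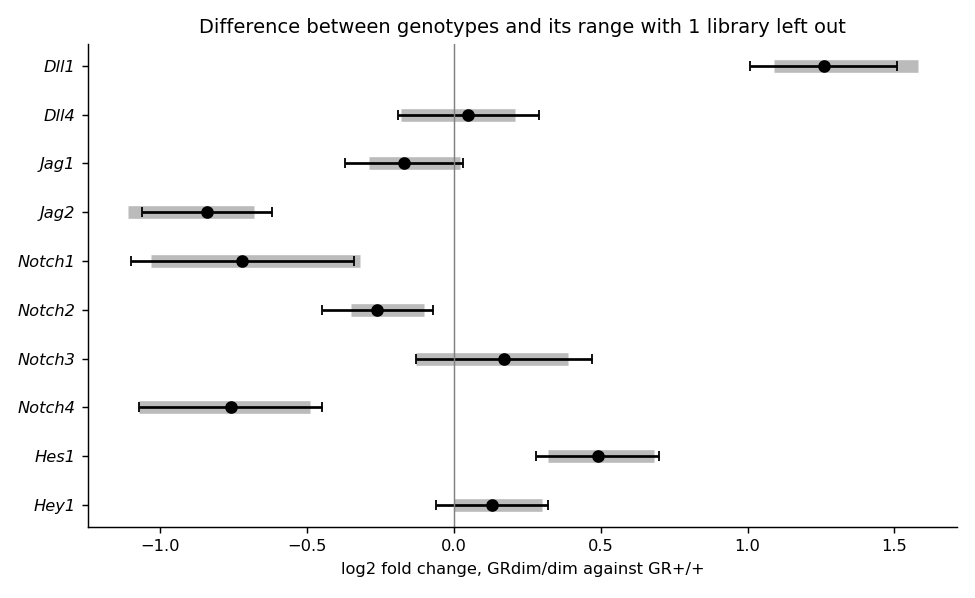
Log2 fold change of GRdim/dim against GR+/+ for each gene (black point) with its SE from the edgeR fit (black bar) and the range of the value when each of the 6 libraries is left out in turn (grey band). The grey band stays above 0 for *Dll1* (1.09 to 1.58) and *Hes1* (0.32 to 0.68) and below 0 for *Jag2*, *Notch1*, *Notch2* and *Notch4*.

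Of these 10 genes, 5 had higher and 5 lower means in GRdim/dim lungs, with a median log2 fold change of -0.06, beside 0.01 over all 16568 genes tested. By role, the medians were -0.06 for the ligands, -0.49 for the receptors and 0.31 for the targets. DEGs were genes with a Benjamini-Hochberg adjusted *p*-value below 0.05 whose log2 fold change exceeded 0.5 in size. By edgeR's quasi-likelihood test 0 of the 10 were DEGs, and 28 of all genes tested were, or 0.169%. Before adjustment, 4 of the 10 were under 0.05, *Dll1* and *Hes1* with higher and *Jag2* and *Notch4* with lower levels in GRdim/dim lungs, against 9.60% of all genes (4.91% higher and 4.68% lower). DESeq2 with the same thresholds called 2 (*Dll1* and *Jag2*) and 1.70% of all genes with an adjusted *p*-value, and before adjustment 5 of the 10 and 5.91% of all genes with a count. DESeq2 called *Dll1* with any of the 6 libraries left out, and *Jag2* only without GRdim/dim replicate 3. *Notch4* was called by DESeq2 without GR+/+ replicate 3 but with no other library left out. Non-overlapping groups were seen for 1 gene in each direction, against 14.8% of all genes (7.77% higher and 7.05% lower in GRdim/dim lungs). Since the genes were chosen with this comparison known, nothing is read from these counts.

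Ordered by the mean level per length over the 6 libraries, *Hey1* came first with 58.0 ± 8.32 CPM per kilobase, then *Dll4* with 48.5 ± 10.3 and *Hes1* with 46.1 ± 12.6 (SD, n = 6). These leading genes changed places between libraries, *Hey1* being above *Dll4* in 4 of 6 and *Dll4* above *Hes1* in 3 of 6. A clear step followed, with *Hes1* above *Notch4* in 6 of 6 libraries. *Notch4* (21.1 ± 9.52), *Notch3* (20.4 ± 5.82), *Jag1* (12.5 ± 2.13), *Notch1* (11.9 ± 5.92), *Dll1* (10.8 ± 5.24) and *Notch2* (10.2 ± 1.85) came next. No neighbours among those genes kept 1 order in all 6 libraries. *Jag2* came last with 6.03 ± 2.07 CPM per kilobase, under *Notch2* in 6 of 6. In the order of genotype means, *Dll1* was rank 10 in GR+/+ and rank 6 in GRdim/dim lungs. In GRdim/dim lungs its level per length, 15.2 ± 2.17 CPM per kilobase (SD, n = 3), was next to that of *Notch4* at 15.7 ± 3.16.

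Markers of lung cell types were summed per library to show which cells the tissue held. In whole tissue, fewer cells of a type and less RNA per cell cannot be told apart. All epithelial, vascular and stromal lists were present in every library, with alveolar type 2 markers (led by *Sftpc* and *Sftpb*) at 16500 to 24700 CPM, club cell markers (*Scgb1a1*, *Cyp2f2*) at 15200 to 29600, alveolar type 1 markers (*Ager*, *Hopx*) at 2730 to 4610 and ciliated markers (*Foxj1*, *Dnah5*) at 126 to 386 CPM. In contrast, markers of liver (*Alb*, *Apoa1*), which lung should lack, were at 1.13 to 4.56 CPM in 5 libraries and at 56.5 CPM in GR+/+ replicate 3. By edgeR's quasi-likelihood test no gene of these 13 marker lists was a DEG, although 18 of the 69 different markers tested (26.1%, against 9.60% of all genes) had an unadjusted *p*-value under 0.05. DESeq2 called 5 of the 69 (7.25%, against 1.70% of all genes), 1 each in the club, endothelial, lymphatic, T cell and alveolar macrophage lists. The marker lists were chosen with earlier results of these data known, so these shares are a description. Ciliated markers summed to 188, 209 and 386 CPM in GR+/+ and to 126, 194 and 184 CPM in GRdim/dim lungs. All 5 had lower means in GRdim/dim lungs, with a median log2 fold change of -0.39. Club cell markers summed to 15200, 19400 and 29600 against 21300, 27400 and 25900 CPM. Of these, 3 of 4 had higher means in GRdim/dim lungs and 1, called by DESeq2, a lower mean. The part of airway cells in the level of *Jag2* was not tested.

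The 8 endothelial markers (*Cdh5* and *Pecam1* the highest) summed to 3620, 3890 and 2460 CPM in GR+/+ and to 2830, 3210 and 3250 CPM in GRdim/dim lungs. Of these 8, 7 had lower means in GRdim/dim lungs, while *Cldn5*, a tight junction gene called by DESeq2 and named after its values were seen, was at 419, 442 and 370 against 535, 697 and 1120 CPM. Without *Cldn5* the sums were 3200, 3450 and 2090 against 2290, 2510 and 2130 CPM. The 8 smooth muscle and pericyte markers (*Acta2*, *Pdgfrb*) summed to 777, 688 and 277 CPM and to 582, 588 and 686 CPM. Arterial markers (*Efnb2*, *Sema3g*) ranged from 585 to 951 CPM in GR+/+ and from 724 to 968 in GRdim/dim lungs. GR+/+ replicate 3 was thus the lowest of the 6 libraries in each of these sums, as it was in *Dll4*, *Notch3*, *Hes1* and *Hey1*. It was the lowest of the controls in *Jag2*, *Notch1* and *Notch4*. The part of the vascular content in the levels of these genes was not tested.

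**Figure D4:**
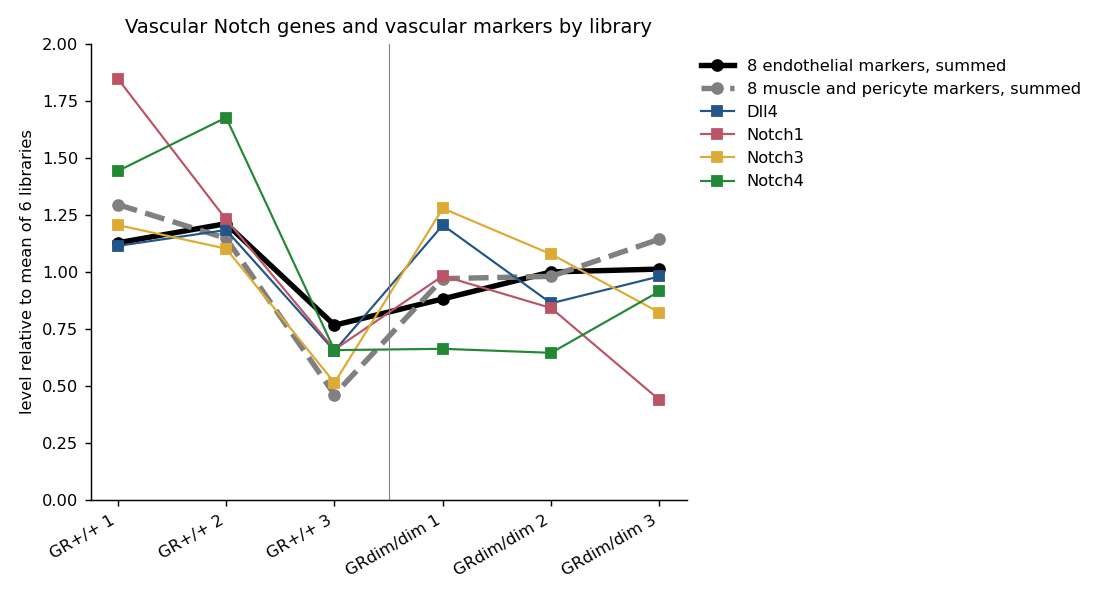
Level of *Dll4*, *Notch1*, *Notch3* and *Notch4* (thin coloured lines) and summed CPM of 8 endothelial markers (thick black line) and of 8 smooth muscle and pericyte markers (thick grey dashed line) in each library, each divided by its own mean over 6 libraries (linear axis from 0). Lines join libraries only to guide the eye. In GR+/+ replicate 3 both marker sums (2460 and 277 CPM) are at their lowest and the 4 genes are all below their mean.

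Expressed per 1000 CPM of the summed endothelial markers, a scale chosen after the data had been seen, as were the other scales here, *Dll1* was at 5.45, 9.56 and 9.54 in GR+/+ and at 26.3, 19.3 and 17.4 in GRdim/dim lungs. *Jag2* was at 15.1, 14.7 and 20.3 against 8.25, 8.26 and 12.5. On this scale both genes kept groups that did not overlap, with log2 differences of 1.38 and -0.80. The targets no longer overlapped either, *Hes1* with 20.9, 23.4 and 27.4 against 28.1, 35.9 and 41.2 and *Hey1* with 48.7, 56.7 and 59.6 against 63.9, 62.0 and 65.5. Over all genes on this scale, the groups did not overlap for 10.1% (6.85% higher and 3.22% lower in GRdim/dim lungs). Without *Cldn5* in the sum, the *Dll1* groups still did not overlap (6.17, 10.8 and 11.2 against 32.4, 24.7 and 26.5), whereas those of *Jag2* did (17.1, 16.6 and 23.8 against 10.2, 10.5 and 19.0). On that scale *Hes1*, *Hey1* and *Notch3* were higher in GRdim/dim lungs without overlap, as were 13.8% of all genes, with 1.39% lower and 15.2% in either direction. With *Cldn5* in the sum, *Notch4* overlapped, at 67.9, 73.5 and 45.4 against 40.0, 34.4 and 47.9, and its log2 difference was -0.59. Per 1000 CPM of the smooth muscle and pericyte markers, *Notch3* was at 255, 264 and 305 in GR+/+ and at 361, 301 and 196 in GRdim/dim lungs, a log2 difference of 0.02. On this muscle scale the groups did not overlap for 3 of the 10 genes, all lower in GRdim/dim lungs (*Jag2*, *Notch1* and *Notch4*), against 5.10% of all genes (0.990% higher and 4.11% lower). The muscle sum of GR+/+ replicate 3, 277 CPM, is less than that of any other library and raises the ratios of that library.

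Markers of lymphocytes had higher means in GRdim/dim lungs, with no DEG by edgeR's quasi-likelihood test. The 6 B cell markers (*Cd79b* among the highest) summed to 23.8, 55.9 and 26.0 CPM in GR+/+ and to 57.6, 87.9 and 64.4 CPM in GRdim/dim lungs, and all 6 had higher means in GRdim/dim lungs, with a median log2 fold change of 1.05 (4 of 6 under an unadjusted *p*-value of 0.05, against 4.91% of all genes in that direction). The 6 T cell markers (*Trac*, *Cd3e*) summed to 13.8, 28.3 and 14.7 CPM against 32.1, 40.1 and 40.2 CPM, again 6 of 6 with higher means and a median of 0.96 (3 of 6 under 0.05). DESeq2 called 0 of the B cell and 1 of the T cell markers. Since these lists were chosen with earlier results of these data known, nothing is read from the counts of markers. In GR+/+ lungs, replicate 2 had the most of both lymphocyte sums and of *Dll1*, whereas in GRdim/dim lungs replicate 1 had the most *Dll1* and the least of both sums.

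The 5 alveolar macrophage markers (*Chil3*, *Mrc1*) summed to 327 to 365 CPM in GR+/+ and 164 to 258 CPM in GRdim/dim lungs, with a median log2 fold change of -0.39. Without *Chil3*, the sums overlapped, at 98.0, 76.6 and 101 against 96.1, 71.1 and 68.8 CPM. Lymphatic markers (*Lyve1*, *Flt4*) ranged from 534 to 727 CPM and from 642 to 1510 CPM, and fibroblast markers (*Pdgfra*, *Col1a2*) from 852 to 1810 CPM and from 1200 to 1630 CPM. No marker of these lists was at 0 in any library. Their part in the levels of the Notch genes was not tested.

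Further genes of the pathway were taken from a list ordered by role, with 47 genes, of which 42 had enough counts (not *Dll3*, *Dlk1*, *Hes3*, *Hes5* and *Hes7*). Of the 42, 18 had higher and 24 lower means in GRdim/dim lungs, with a median log2 fold change of -0.04. By edgeR's quasi-likelihood test 0 were DEGs, and DESeq2 called 0 as well. Before adjustment, edgeR gave *p*-values under 0.05 for 2 higher (*Dlk2*, *Psenen*) and 3 lower (*Lfng* and *Spen* among them), or 11.9% against 9.60% of all genes. Groups did not overlap for 3 genes with higher and 4 with lower levels in GRdim/dim lungs, where the shares of all genes were 7.77% and 7.05%.

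Among the other ligands, *Dlk2*, a Delta-like protein that lacks the domain for receptor activation, was near the detection limit. It was measured at 0.418, 0.120 and 0.826 CPM in GR+/+ and at 1.08, 1.62 and 2.97 CPM in GRdim/dim lungs. The log2 fold change was 1.94 (SE 0.63), with an adjusted *p*-value of 0.360 by edgeR's quasi-likelihood test (0.0446 to 0.642 over the alternatives), and it passed only without a filter on low counts.

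Of the 5 sugar-transferring enzymes, which modify the receptors and tune their choice of ligand, 0 were DEGs. *Lfng*, which encodes lunatic fringe and favours signaling by Delta ligands over Jagged ligands, was at 91.6, 89.0 and 69.4 CPM in GR+/+ and at 58.9, 48.6 and 68.0 CPM in GRdim/dim lungs. The groups nearly touched without overlap, at a log2 fold change of -0.51 (SE 0.19, adjusted *p*-value 0.428 by edgeR's quasi-likelihood test, 0.128 to 0.853 over the alternatives). The 4 ligand ubiquitin ligases, which let ligands pull on the receptor, lay between -0.18 and -0.01, with *Mib1* at -0.18 (SE 0.20) and *Mib2* at -0.09 (SE 0.20).

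Of the 10 protease genes that cut the receptors, 5 had higher and 5 lower means, with a median of -0.03. *Psenen*, which encodes the smallest subunit of γ-secretase, was at 46.3, 52.8 and 57.7 CPM in GR+/+ and at 61.1, 89.1 and 84.1 CPM in GRdim/dim lungs. The groups did not overlap, but the log2 fold change of 0.58 (SE 0.19) had an adjusted *p*-value of 0.360 by edgeR's quasi-likelihood test (0.0847 to 0.726 over the alternatives). Of the other γ-secretase genes, *Psen2* was at 0.12, *Ncstn* at 0.02, *Aph1a* at -0.14, *Aph1b* at -0.11 and *Aph1c* at -0.36.

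In the nuclear complex, 5 of 7 genes had lower means and the median was -0.31. *Spen*, a corepressor named here after its values were seen, had -0.56 (SE 0.23, adjusted *p*-value 0.467 by edgeR's quasi-likelihood test). *Rbpj*, the DNA-binding partner of all 4 receptors, was at 0.13 (SE 0.20).

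The 9 genes of inhibitors and turnover had a median of 0.01. *Dtx3*, the highest of them per length, was at 0.15 (SE 0.23), and *Dtx1*, a target and regulator of Notch in lymphocytes, was at 4.12, 5.64 and 4.70 CPM in GR+/+ and at 5.72, 10.2 and 6.01 CPM in GRdim/dim lungs. This was a log2 fold change of 0.60 (SE 0.31, adjusted *p*-value 0.588 by edgeR's quasi-likelihood test), which came to 0.28 without GRdim/dim replicate 2. Of the 5 other targets tested, 4 had lower means, with *Hes6* at -0.31 (SE 0.24, -0.57 without GRdim/dim replicate 3 and -0.12 without GRdim/dim replicate 1) and *Hey2* at -0.58 (SE 0.36). *Hey2*, like *Hey1* a gene of arterial endothelium, was at 7.71, 7.31 and 3.24 CPM in GR+/+ and at 3.56, 4.28 and 4.33 CPM in GRdim/dim lungs.

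**Figure D5:**
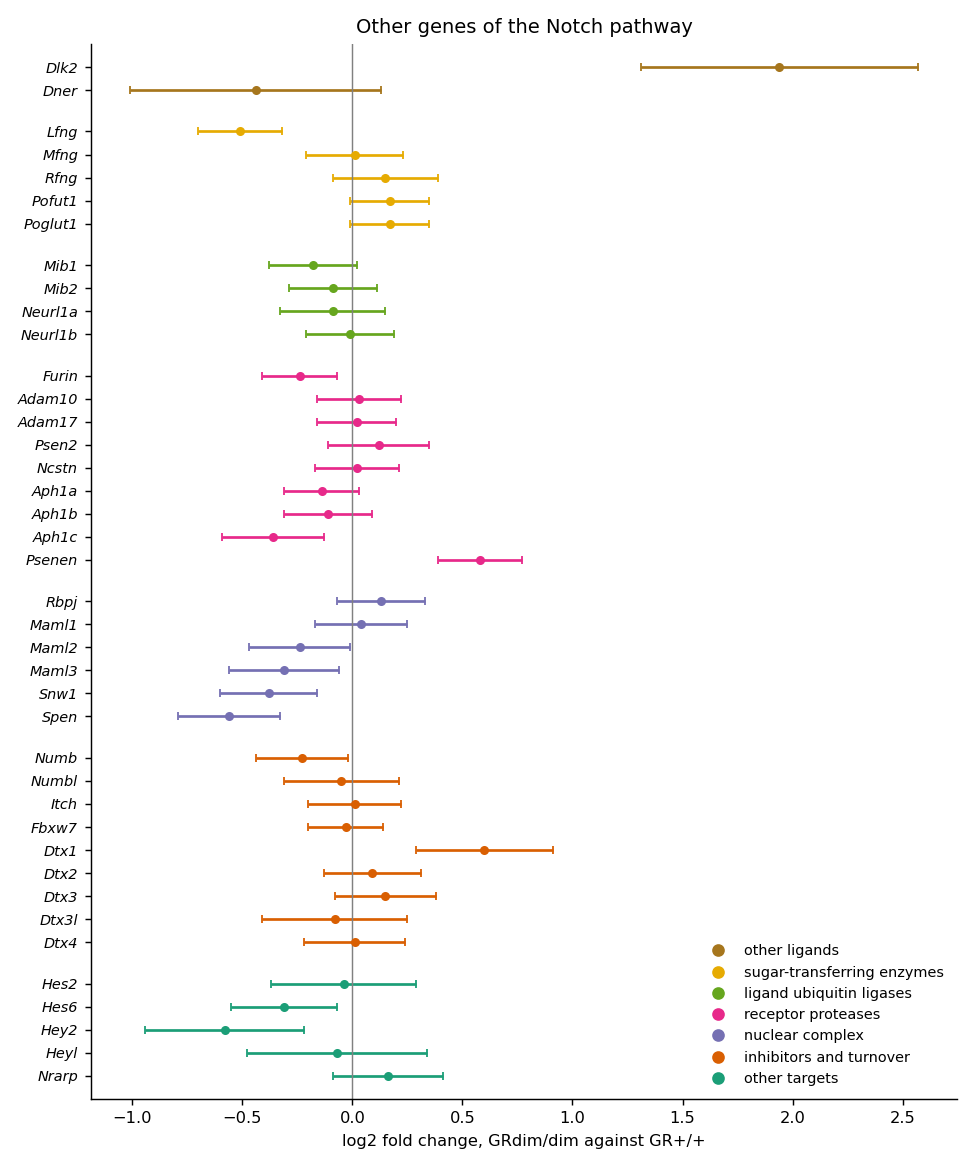
Log2 fold change of GRdim/dim against GR+/+ with its SE from the edgeR fit for 40 of the 42 further pathway genes tested, coloured by role. Values lie between -0.58 (*Hey2*) and 1.94 (*Dlk2*), and none of the genes was a DEG.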

How the data were processed

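The values deposited by the authors are raw counts of reads for each gene, whole numbers without normalization, of 6 poly(A)-captured lung libraries of separate mice, together with gene coordinates and a gene length. Per the labels, reads were placed on mm10 (GRCm38) and DESeq2 was used. The aligner, the counting tool and the use of strand are not given in the sources used here. Groups and replicate numbers come from the sample labels.

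Counts were analysed in R 4.3.3 with edgeR 4.0.16 by its quasi-likelihood test (TMM scaling, filterByExpr, robust glmQLFit), and *p*-values were adjusted over 16568 genes by the Benjamini-Hochberg method. A prior count of 2 was used for log2 values of single libraries, and the fold changes come from the fit. DEGs had an adjusted *p*-value below 0.05 and differed by more than 0.5 on the log2 scale. DESeq2 1.42.0 was an alternative, and so were scaling by RLE, testing without a low-count filter, a minimum of 10 counts per library, a replicate block, a covariate for sex-linked expression, DEGs without a fold threshold, and leaving out each library. DESeq2 with a library left out and levels per summed endothelial markers (with and without *Cldn5*) or muscle markers were added after the data had been seen. Replicates of a genotype differed by 20.6 to 73.5 in chi-square per degree of freedom, where sampling noise gives about 1, so they were used as separate samples. The gene lengths deposited by the authors gave CPM per kilobase. The procedure was tested on simulated data.

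The 10 genes, the pathway list and the marker lists were chosen with earlier results of these data known. Named were all 10 genes, and of the pathway list, in each role, the gene with the highest level per length and that with the smallest unadjusted *p*-value, besides any DEG. Outside this rule, *Spen*, *Rbpj*, *Psen2*, *Ncstn*, *Aph1a*, *Aph1b* and *Aph1c* were named as well. Of each marker list, the 2 genes with the highest mean CPM were named. A few genes that the rule or the lists cover are not reported here by name. Promoter windows are from RefSeq (GRCm38.p6), exons and UTRs from GENCODE M21, which gives identical starts for all 10 genes and identical ends for all but *Notch3*. Windows of 31 bases shared with transcripts of other genes made up at most 4.48% of a gene.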

Additional observations from a re-analysis of the deposited data

How the results depend on the processing

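Of all 16568 genes, edgeR's quasi-likelihood test called 28 DEGs. It called 29 with RLE scaling, 29 with at least 10 counts in every library, 20 with the sex covariate and 28 without a fold threshold, but 522 without a filter on low counts, and DESeq2 called 274. With 1 library left out, edgeR called 4 (without GR+/+ replicate 2) to 22 and DESeq2 175 to 384 (182, 192 and 175 without GR+/+ replicates 1, 2 and 3, and 253, 241 and 384 without GRdim/dim replicates 1, 2 and 3). Of the 10 Notch genes edgeR called 0, also with any 1 library left out. Without a filter it called 3 (*Dll1*, *Jag2* and *Notch4*), DESeq2 called 2, and DESeq2 with 1 library left out 1 to 2. Of the other pathway genes, 1 (*Dlk2*) was called without a filter and 0 under the other settings run. The cause was not tested. The replicate numbers did not pair the libraries (correlations of deviations 0.22, 0.04 and -0.05), and with the number as a block 34 DEGs were called, 0 of the 10 Notch genes and 0 of the pathway genes.

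Among uncalled genes, *Mib1* changed sign to 0.03 without GR+/+ replicate 3 by edgeR and by DESeq2 (-0.28 to 0.03 by edgeR with 1 library left out). *Mib2* came to 0.07 (edgeR) and 0.05 (DESeq2) without GRdim/dim replicate 1 (-0.27 to 0.07). *Dtx3* came to -0.03 (edgeR) and -0.02 (DESeq2) without GR+/+ replicate 3 and to -0.04 by both without GRdim/dim replicate 3 (-0.04 to 0.33). At this depth the counting error of the 10 genes was at most 5.5%. Per endothelial markers without *Cldn5*, *Notch2* came to 0.04 and *Hey1* to 0.45, and *Jag1* to 0.11. Ordered by CPM without length, 6 of the 10 genes changed rank, *Hes1* falling to rank 7 and *Notch4* rising to rank 3.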

Other observations

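Genes whose levels followed *Dll1* most closely over the 6 libraries were sought by the root mean square difference of log2 CPM, each centred on its own mean, among 16140 genes. The nearest were *Klhl31* (0.13), *Gpr65* (0.16) and *Hsh2d* (0.17), with log2 fold changes of 1.41, 1.27 and 1.18 in GRdim/dim against GR+/+ lungs. *Gpr65* encodes a proton-sensing receptor of leukocytes and *Hsh2d* an adaptor protein of hematopoietic cells. The nearest gene, *Klhl31*, was not assigned to a cell type here, and the cell source of *Dll1* was not tested. For *Jag2*, the nearest were *Bdh1* (0.11), *Gm9833* (0.12) and *Dyrk1b* (0.13), with -0.77, -1.04 and -0.74. *Bdh1* encodes an enzyme of ketone body metabolism and *Dyrk1b* a protein kinase. These likenesses over 6 libraries are a description, with no test.

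Per 1000 CPM of the smooth muscle and pericyte markers, *Notch4* was at 316, 415 and 404 in GR+/+ and at 194, 188 and 227 in GRdim/dim lungs, without overlap, a log2 difference of -0.89. *Notch1* was at 404, 304 and 404 against 287, 244 and 109, also without overlap (-0.90). On this scale *Dll1* overlapped, with 25.4, 54.0 and 84.9 against 128, 105 and 82.5, and *Jag2* did not (70.2, 83.3 and 180 against 40.1, 45.1 and 59.1). Whether the groups overlapped therefore depended on the markers used as the reference for *Dll1*, *Jag2*, *Notch1*, *Notch3*, *Notch4*, *Hes1* and *Hey1*. The muscle sum of GR+/+ replicate 3 was 277 CPM, against 582 to 777 CPM in the other libraries, and 5.10% of all genes had groups without overlap on this scale.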
